A study of Rattus norvegicus with 23 samples.

Results

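Gene expression was compared among the 7 newborn rat hearts labelled Control, out of 23 hearts hybridized to Rat Gene 1.0 ST arrays. The hearts were taken by that label alone, and no expression value was used to pick them. The choice of this group for study, of the gene lists and of the list pairs was made with earlier results of these data known. For each probe set the standard deviation (SD) over the 7 hearts was computed and set beside the SD within each exposed group. Differences of group means were not tested.

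All hearts were whole hearts of Sprague Dawley rats at postnatal day 1, and each group held male and female pups. Dams of the control hearts were on control diet from at least 28 days ahead of mating until delivery and received citrate buffer on gestational day 14. The diabetes group (n = 6) came from control-diet dams given streptozotocin, which kills pancreatic beta cells, at 65 mg per kg on that day. The high-fat (HF) diet group (n = 5) came from dams on HF diet given buffer, and the combination group (n = 5) from dams given both. Diabetic dams also received insulin. The 7 control hearts carry 7 different code stems in their labels and the diabetes hearts 6, while the HF diet hearts carry 3 and the combination hearts 3. Whether a stem stands for a dam is not stated, so hearts of 1 group may be littermates, and every p-value rests on the variation between the hearts as deposited.

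The newborn heart is in transition. Its myocytes are leaving the cell cycle, fatty acids of the milk replace glucose and lactate as fuel, and mitochondria multiply. A whole-heart extract also holds blood, valves, nerves, epicardium and whatever tissue stays attached at dissection, and in such a bulk sample fewer cells of a type cannot be told apart from less RNA per cell. Values are log2 signals centred on the median of the 23 hearts, so 0 is the middle heart and 1 is a doubling. Levels cannot be compared between genes on this scale, and the labelled tissue could not be checked from the level of its own markers.

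Most genes varied little between control hearts. The median SD over all 29170 probe sets was 0.164 log2, with an interquartile range of 0.117 to 0.233. An SD above 1 was found for 78 probe sets, and for 34 when heart 1 was left out. In the exposed groups the median SD was 0.164 for diabetes, 0.151 for HF diet and 0.18 for the combination, and 42, 45 and 72 probe sets had an SD above 1. Of all probe sets, 51.6% had a larger SD in diabetes than in control hearts, 43.9% in HF diet hearts and 57.5% in combination hearts. Probe sets that spread widely in control hearts tended to do so in exposed hearts as well, with a Spearman rho of the SDs across probe sets of 0.57 for diabetes, 0.45 for HF diet and 0.48 for the combination. These are descriptions across probe sets, which are not independent and share their arrays.

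**Figure D1:**
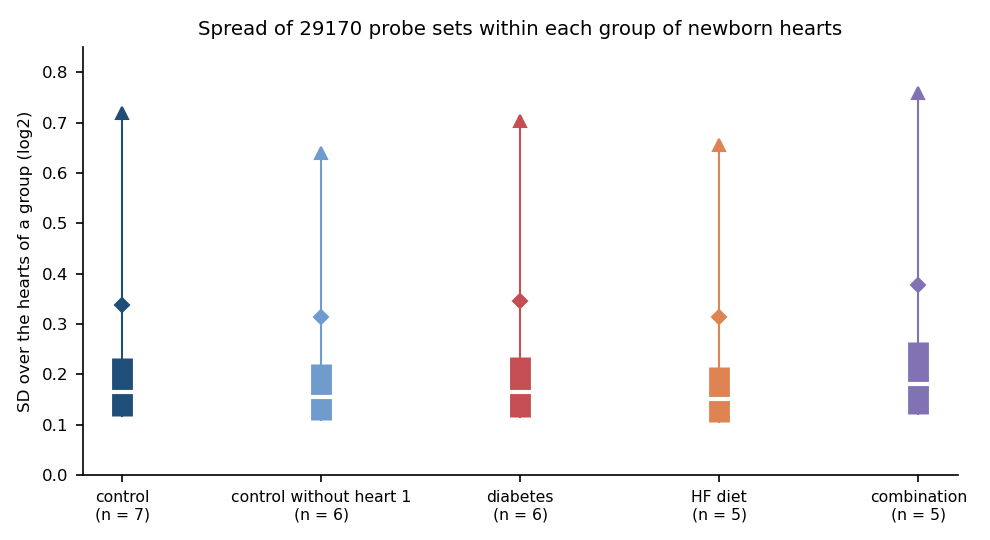
SD of each of 29170 probe sets (log2, y axis) over the hearts of each group (x axis), with bars from the 25th to the 75th percentile, a white line at the median, a diamond at the 90th percentile and a triangle at the 99th. The medians lie between 0.151 and 0.18, and the 99th percentile of the control hearts is 0.719 with heart 1 and 0.64 without it.

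The spread of single probe sets was tested with limma on each heart's absolute deviation from the mean of its group. No probe set differed in spread between diabetes and control hearts at a Benjamini-Hochberg adjusted p under 0.05 (0% of 29170). At an unadjusted p under 0.05 there were 1864. Such unadjusted counts include the probe sets that chance alone gives in 29170 tests. None differed for HF diet (0%), with 1998 at an unadjusted p under 0.05. In the combination 10 probe sets were called, 0.0343% of those tested, and all 10 spread more widely in the exposed hearts than in the controls. At an unadjusted p under 0.05 the combination hearts were wider for 2292 probe sets and narrower for 775, but after quantile normalization the counts were 996 and 1433, so this direction turned with the scaling. When deviations were taken from the group median in place of the mean the test called no probe set in any comparison. At an unadjusted p under 0.05 there were then 465 probe sets for diabetes, 322 for HF diet and 693 for the combination. Without 1 control heart at a time it called between 1 and 3 for the combination and without 1 combination heart between 17 and 110. With only the first heart of each code stem, which leaves 3 exposed hearts, it called 924 for the combination and 116 for HF diet.

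The probe set with the smallest p was that of Ramp3, which encodes a partner protein of the calcitonin-like receptor and thereby shapes its response to adrenomedullin. Its control hearts lay between -0.18 and 0.25 and its combination hearts between -0.26 and 1.478. The SD was 0.13 in control and 0.85 in combination hearts (limma adjusted p = 0.00316). Crabp2, a carrier of retinoic acid, had an SD of 0.15 in control and 0.69 in combination hearts (limma adjusted p = 0.0432). Sele, the endothelial adhesion molecule E-selectin, had SDs of 0.14 and 0.77. Cdh17, a cadherin, had SDs of 0.24 and 0.65, and Rpl22, a protein of the large ribosomal subunit, 0.1 and 0.37 on the 1 of its 3 probe sets that was called. The other called genes were Vom2r63 and Tmem256, and 3 of the 10 probe sets had no single gene symbol. The limma adjusted p of the 8 calls other than Ramp3 and Crabp2 was 0.04996, just inside the threshold.

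No gene passed the adjusted threshold for diabetes or HF diet, the lowest adjusted p over all probe sets being 0.506 and 0.452, and the genes with the smallest p went both ways. For diabetes 984 probe sets were wider in the exposed hearts and 880 narrower at an unadjusted p under 0.05. Of the 10 genes with the smallest p, 7 had the larger SD in diabetes hearts (Tmem169, Ptx3, Bhmt, Fancd2osl1, Gys2, Gsdma and Creb1) and 3 in control hearts (Enpp2, Cma1 and Olr1191). Bhmt, which remethylates homocysteine with betaine, had an SD of 0.1 in control and 0.59 in diabetes hearts, and Ptx3, a soluble pattern recognition protein, 0.11 and 0.44. Enpp2, which makes lysophosphatidic acid, had an SD of 0.94 in control and 0.3 in diabetes hearts, with controls from -0.41 to 2. Cma1, a mast cell chymase, had SDs of 0.46 and 0.1.

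For HF diet 969 probe sets were wider and 1029 narrower in the exposed hearts at an unadjusted p under 0.05. Of the 10 probe sets with the smallest p, 6 had the larger SD in HF diet hearts (Sarnp, Lipe, Penk, Or13a27e and 2 of Ftl1) and 4 in control hearts (Khdrbs3, Fcrl2, Krt8 and Tmsb4x). Lipe, the hormone-sensitive lipase, had an SD of 0.14 in control and 0.47 in HF diet hearts. Krt8, a keratin of simple epithelia, had SDs of 0.75 and 0.14 on 1 of its 2 probe sets and of 0.62 and 0.12 on the other, and without heart 1 the control SDs were 0.52 and 0.34. The ferritin light chain gene Ftl1 had an SD of 0.08 in controls and of 0.77 to 0.78 in HF diet hearts on 2 of its 6 probe sets. These rest on 1 HF diet heart, at -1.73 and -1.71, while the median of the group was 0 on both.

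Whole profiles were compared by the root mean square deviation of a heart from its group mean. Among control hearts this distance was 0.32 for heart 1, 0.29 for heart 5, 0.23 for heart 6, 0.22 for hearts 3 and 4, 0.18 for heart 2 and 0.17 for heart 7. The mean distance was 0.23 ± 0.05 (SD, n = 7). It was 0.23 ± 0.05 in diabetes (n = 6), 0.22 ± 0.03 in HF diet (n = 5) and 0.25 ± 0.04 in combination hearts (n = 5). No group differed from the controls in a two-sided exact permutation test, with p = 0.938 for diabetes, 0.549 for HF diet and 0.49 for the combination, and adjusted p of 0.938, 0.824 and 0.824 over the 3 tests.

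**Figure D2:**
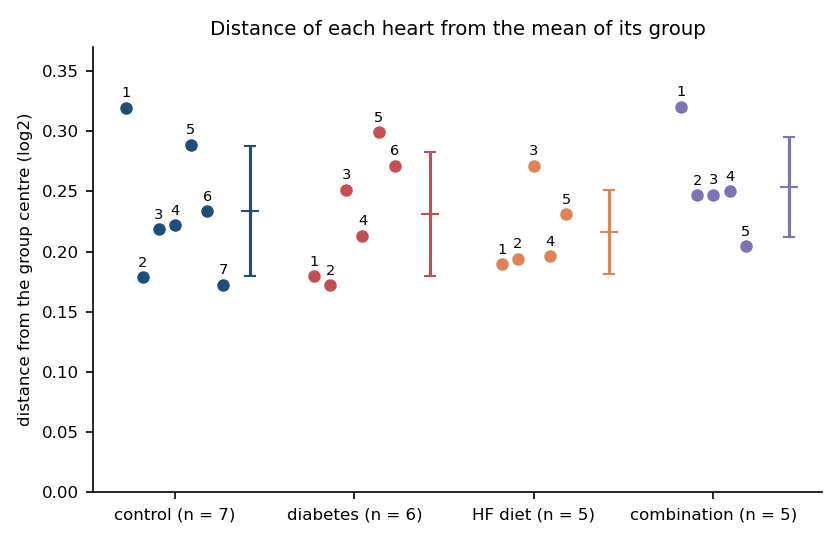
Distance of each heart from the mean profile of its group (y axis, root mean square over 29170 probe sets, log2) for the 4 groups (x axis). Points are hearts with their replicate number, and the bar beside them is the mean ± SD. Control hearts span 0.17 to 0.32 and overlap every exposed group.

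The control hearts did not vary along a single line. The first 3 principal components of their profiles held 39.7%, 22.3% and 12.1% of the variance. Heart 1 (-39.6) and heart 5 (39.4) lay at the ends of the first component. Heart 1 stood more than 1 log2 unit above all 6 other control hearts for 264 probe sets and below them for 2. Heart 5 did so for 23 above and 40 below, heart 6 for 28 above and 8 below, and the remaining hearts for at most 5 in either direction. Of all named genes, 16.9% were highest in heart 1, 9.9% in heart 2, 15.2% in heart 3 and 13.2% in heart 4. The shares were 20.6% for heart 5, 16% for heart 6 and 8.3% for heart 7. Hearts 1 to 7 were lowest for 23.3%, 9.3%, 12.5%, 12.2%, 18%, 15.6% and 9.1%, in this order. Counts of list members highest or lowest in a heart are to be read beside these shares.

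Heart 1 carried genes of lung epithelium and of the thymus. Of the 20 named genes with the largest SD over control hearts, 17 were highest in heart 1. Scgb1a1, the secretoglobin of airway club cells, was 6.26 in heart 1 and between -0.54 and 0.07 in the other 6, an SD of 2.41. Sftpc, the surfactant protein C of alveolar type II cells, was 5.93 in heart 1 and at most 0.07 elsewhere, and Sftpb was 4.54. Cd3g, a chain of the T cell receptor complex, was 5.73 against -0.28 to 0.18. Rag1, the recombinase of developing lymphocytes, was 4.67, and Prss16, a protease of the thymic cortex, was 4.06. The SD without heart 1 was 0.23 for Scgb1a1, 0.16 for Sftpc, 0.16 for Cd3g and 0.1 for Prss16. Slc7a11, the cystine transporter, also stood apart in heart 1 at 5.07, with an SD of 0.09 over the other hearts.

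The whole lists followed these genes. All 16 measured thymus and T cell genes were highest in heart 1, and their mean was 3.14 there and -0.07 to 0 in the other control hearts. Of the 16 lung epithelium genes 15 were highest in heart 1, with a list mean of 2.34 against -0.11 to 0.02. Foxj1, of ciliated cells, was at 0 in heart 1, and Nkx2-1, the lung and thyroid regulator, was at 0.07. Of the 19 genes of MHC and antigen presentation 16 were highest in heart 1, with a mean of 1.11 against -0.21 to 0.24, led by RT1-Da at 3.59 and Cd74, the invariant chain, at 2.93. Without heart 1 the SD went from 1.42 to 0.4 for RT1-Da and from 1.09 to 0.23 for Cd74. RT1 genes are near-identical copies, and their probe sets may share signal. The 22 macrophage and monocyte genes averaged 0.5 in heart 1 and -0.16 to 0.29 in the others, and 15 were highest there. Their share in other results was not tested. The SD of the list mean without heart 1 was 0.02 for thymus, 0.05 for lung, 0.16 for MHC and 0.16 for macrophage genes.

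By construction 10% of the named genes are in the top 10% by SD, which began at 0.3 log2. The thymus list had 15 of its 16 members there, the lung list 11 of 16, the MHC list 13 of 19 and the macrophage list 11 of 22. With the top 10% taken by SD over hearts 2 to 7 the counts were 0, 0, 4 and 6. The median SD of the members went from 1.26 to 0.12 for thymus, from 0.76 to 0.12 for lung, from 0.38 to 0.21 for MHC and from 0.3 to 0.25 for macrophage genes when heart 1 was left out. In exposed hearts the thymus genes were flat, with list means from -0.08 to 0.12 and SDs of the list mean of 0.03 (diabetes), 0.01 (HF diet) and 0.07 (combination). Lung genes were high in single exposed hearts too. The highest list mean was 0.59 in diabetes and 0.74 in HF diet hearts, where Scgb1a1 reached 3.92 and 4.22 and Scgb3a1, another airway secretoglobin, 3.52 and 4.18, while Sftpc stayed at or below 0.44. Scgb1a1 in control heart 1 thus came with Sftpc, and in these exposed hearts without a like value of it. The means of the thymus and lung lists had a Pearson r of 0.998 over the 7 control hearts and a Spearman rho of 0.18, with exact permutation p of 0.097 and 0.713. The correlation rests on heart 1, since it was -0.26 without it and 0.12 without hearts 1 and 4.

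**Figure D3:**
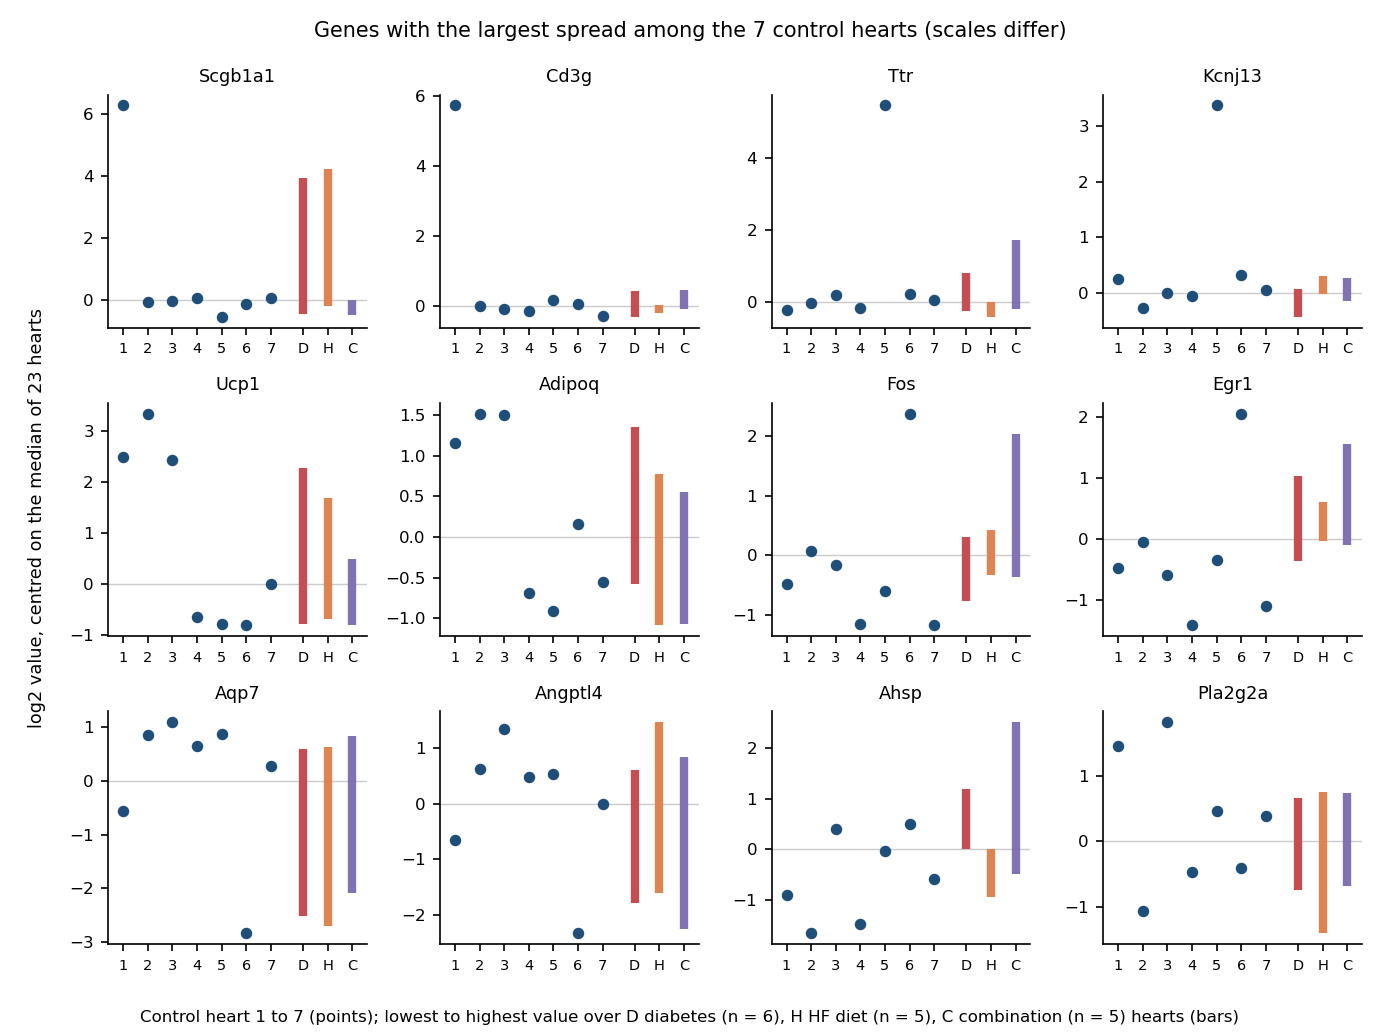
Log2 values centred on the median of 23 hearts (y axis) of 12 genes in control hearts 1 to 7 (points), with the range over the diabetes (D), HF diet (H) and combination (C) hearts as bars. Scgb1a1 and Cd3g stand apart in heart 1, Ttr and Kcnj13 in heart 5, Fos and Egr1 in heart 6 above and Aqp7 and Angptl4 in heart 6 below, and Ucp1 is high in hearts 1 to 3.

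Among the genes that stood above the other control hearts in heart 5, Ttr was first. Ttr, which encodes the carrier of thyroxine and retinol, was 5.48 in heart 5 and between -0.22 and 0.22 in the other 6 control hearts. Kcnj13, an inwardly rectifying potassium channel, was 3.38 against -0.29 to 0.31, and Htr2c, a serotonin receptor, was 3.2 against -0.08 to 0.24. Clic6, a chloride channel protein, was 2.18, and Cldn2, Sostdc1, Kl, Mfrp, Folr1 and Kcne2 were each more than 1 log2 unit above every other control heart. No exposed heart reached these values, the highest being 1.71 for Ttr in the combination and 0.3 for Kcnj13 in HF diet hearts. Ttr belongs to the list of liver genes, yet the list did not follow it. The liver list averaged 0.23 in heart 5, and Alb was -0.29 there. Of its 16 members 6 were lowest in heart 5, against 18% of all named genes. When the 200 most variable genes were grouped by correlation, 11 genes led by Ttr formed 1 group, with a mean of 2.36 in heart 5 and a mean pairwise r of 0.89 over the control hearts. Over the exposed hearts, each centred on its group, the same 11 genes had a mean pairwise r of -0.02. A lower r in hearts not used for the grouping is favoured by the same choice.

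Heart 6 was set apart by the immediate early genes, which answer a stimulus within minutes without new protein synthesis. Fos, a subunit of the AP-1 transcription factor, was 2.38 in heart 6 and between -1.18 and 0.07 in the other control hearts. Egr1, a zinc finger factor, was 2.05 against -1.41 to -0.05. The orphan nuclear receptors Nr4a1 and Nr4a3 were 2.62 and 2.24, and Atf3, a stress-induced repressor, was 1.89. Of the 28 genes on the list 26 were highest in heart 6, and 21 were in the top 10% by SD, against 10% of all named genes. The list mean was 0.95 in heart 6, near 0 in hearts 2 and 3, -0.11 in heart 1, -0.24 in heart 5, -0.39 in heart 7 and -0.45 in heart 4. Its SD was 0.47 with heart 6 and 0.19 without it. The corresponding SD was 0.46 in the combination, 0.23 in diabetes and 0.16 in HF diet hearts. In the combination group the list mean ran from -0.11 to 1, with Fos up to 2.03 and Nr4a1 up to 2.31.

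Many immediate early genes are switched on by serum response factor, which binds the CArG box. RefSeq promoters of build GRCr8, each of 300 bases around the start of the gene, were at hand for 19 of the 28 list members. The CArG box, searched by name and equal on both strands, was found in 4 of these 19 (21.1%) and in 548 of all 33469 promoters (1.64%). A match is a description of the letters and not a bound site. The promoters of Egr1 (chr18:26736828-26737127, plus strand) and Zfp36 (chr1:92799059-92799358, minus strand) are shown because both genes belong to the group that stood apart in heart 6, with the CArG boxes in capitals.
Egr1: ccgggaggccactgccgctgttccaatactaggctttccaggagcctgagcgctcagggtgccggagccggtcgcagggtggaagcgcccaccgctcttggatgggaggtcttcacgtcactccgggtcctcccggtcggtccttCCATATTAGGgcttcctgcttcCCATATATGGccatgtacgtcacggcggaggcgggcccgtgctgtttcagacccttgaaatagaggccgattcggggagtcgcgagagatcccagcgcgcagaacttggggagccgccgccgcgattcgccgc
Zfp36: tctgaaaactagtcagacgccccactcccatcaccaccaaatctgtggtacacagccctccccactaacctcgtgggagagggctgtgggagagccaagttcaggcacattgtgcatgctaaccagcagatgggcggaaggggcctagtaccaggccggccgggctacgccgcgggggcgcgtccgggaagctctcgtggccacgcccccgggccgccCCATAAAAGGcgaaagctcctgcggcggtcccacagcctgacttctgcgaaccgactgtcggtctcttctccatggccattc
The Egr1 promoter holds 2 boxes and the Zfp36 promoter 1, and the others with a match were Egr2 and Klf6. No CArG box was found in the 300 bases of Junb, Nr4a1, Ccn1 or Ccn2, which grouped with Egr1 by their values.

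The mean of the immediate early genes followed that of 17 genes of hypertrophy and myocyte stress, such as Edn1, the endothelin-1 gene, at 0.7 in heart 6 and -0.91 in heart 4. The Pearson r over 7 hearts was 0.938 (exact permutation p = 0.00198, adjusted over 12 list pairs 0.00794) and Spearman's rho 0.86 (exact p = 0.0238, adjusted 0.0714). It was 0.82 without hearts 4 and 6, and 0.36 over the 16 exposed hearts centred on their groups. The lists and the 12 pairs were chosen with earlier results of these data known, which the adjusted p does not account for. Members of the hypertrophy list went together little, with a mean pairwise r of 0.08. Of the 17 members 8 were highest in heart 6, against 16% of all named genes. The glycolysis and hypoxia response genes were also high there. Of these 35 genes 24 were highest in heart 6, with a list mean of 0.3 there and -0.26 to 0 in the other control hearts. Within the 200 most variable genes a group of 14 held Fos, Egr1, Nr4a1, Nr4a3, Atf3, Junb, Zfp36, Ccn1 and Ccn2, and with them Sgk1, a kinase induced by glucocorticoids, and Hk2, the insulin-regulated hexokinase. It also held the neuronal genes Stmn2 (0.88, 0.74 and 0.71 in hearts 2, 3 and 6) and Nefl (0.86, 0.325 and 0.77). The mean pairwise r of this group was 0.83 over control hearts and 0.44 over exposed hearts, so here the genes also went together in the exposed hearts.

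The same heart 6 was low for targets of PPAR, the fatty acid sensing nuclear receptors. Aqp7, a glycerol channel, was -2.84 in heart 6, -0.57 in heart 1 and between 0.28 and 1.1 in the other 5. Angptl4, a secreted inhibitor of lipoprotein lipase, was -2.34 in heart 6, -0.65 in heart 1 and 0 to 1.34 elsewhere. Acot1, an acyl-CoA thioesterase, was -1.69 against -0.5 to 0.66, and Ech1 and Decr1, enzymes of unsaturated fatty acid oxidation, were -1.13 and -0.92. Of the 32 genes of fatty acid oxidation and PPAR targets 23 were lowest in heart 6, and the list mean was -0.37 there, -0.21 in heart 1 and 0.05 to 0.26 in the others. Exposed hearts spanned a like range. The list mean had an SD of 0.22 among the controls, and the exposed groups had 0.24 (HF diet), 0.19 (combination) and 0.17 (diabetes). The lowest Aqp7 values there were -2.7, -2.09 and -2.52 in the same order. Over control hearts 2 to 7, a group of 19 genes led by Aqp7 had a mean pairwise r of 0.89, and 0.71 over the exposed hearts.

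Hearts 1, 2 and 3 shared a high level of some brown fat genes. Ucp1, the uncoupling protein of brown adipocytes, was 2.49, 3.34 and 2.44 in these hearts and -0.65, -0.78, -0.79 and 0 in hearts 4 to 7. Adipoq, the adipocyte hormone adiponectin, was 1.16, 1.52 and 1.5 against -0.91 to 0.16, and Car3, an abundant carbonic anhydrase of fat, was 1.53, 1 and 0.89 against -0.75 to -0.23. Both sets of hearts were separate for these 3 genes. The full list of 13 was less uniform, with Fabp4 between -0.35 and 0.16 and Elovl3 between -0.11 and 0.18 over all 7 hearts, and Aqp7, which is also a PPAR target, went its own way in heart 6. Its mean was 0.43, 0.66 and 0.56 in hearts 1 to 3 and -0.28 to -0.11 in the others, and 7 of 13 genes were in the top 10% by SD. The SD of the list over control hearts was 0.4 by the mean and 0.21 by the median of its genes. A group of 6 genes with Ucp1, Adipoq, Car3, Cidec and the gluconeogenic gene Pck1 had a mean pairwise r of 0.89 over control hearts 2 to 7 and of 0.6 over the exposed hearts. Heart 1 was not used to form this group. There Pck1 was 0, Cidec 0.05 and Pi15, the remaining member, -0.53, so these did not share the high level of hearts 2 and 3. The SD of Ucp1 was 1.82 over the control hearts, and 1.39 (diabetes), 0.98 (HF diet) and 0.53 (combination) over the exposed ones. A part of adherent fat in other results was not tested.

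Epicardium and mesothelium genes had their highest list mean in heart 3. The mean of these 11 genes was 0.58 in heart 3, 0.19 in heart 1 and -0.12 to 0.11 in the other 5, and 6 of the 11 were highest in heart 3. Krt19 was 1.29 in heart 3, Upk1b 1.15 and Msln 0.96, all 3 above every other control heart, while Krt8 was highest in heart 1 at 1.52 and 0.7 in heart 3. The SD of this list mean was 0.24 over the controls and 0.12 over the controls without heart 3, and in each exposed group it was 0.08 or 0.09. The mean of 17 neutrophil and mast cell genes was 0.44 in heart 1, where 9 of the 17 were highest, 0.27 in heart 3 and -0.15 to 0.14 in the others. The mast cell protease Cpa3 was 1.61 in heart 1 and 1.74 in heart 3 and at most 0.1 in the others, and Tpsab1 was 1.31 and 0.72. Pla2g2a, a secreted phospholipase, was 1.83 in heart 3 and 1.45 in heart 1 and lowest in heart 2 at -1.07.

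Red cell genes had their lowest list means in hearts 2 and 4, at -0.51 and -0.43. Ahsp, the chaperone of alpha globin, was -1.65 in heart 2 and -1.46 in heart 4, -0.89 in heart 1, and between -0.58 and 0.5 in the other 4. Alas2, which starts heme synthesis in red cells, was -1.12 in heart 2 and -1.07 in heart 4 and highest in heart 3 at 0.46. Slc4a1, the anion exchanger of the red cell membrane, ran from -1.15 in heart 2 to 0.48 in heart 3. Of the 24 list members 13 were lowest in heart 2, and 13 were in the top 10% by SD. The SD of the list mean over control hearts, 0.29, lay between those of diabetes (0.25) and HF diet (0.14) on one side and the combination (0.46) on the other. Globin genes are near-identical copies whose probe sets may share signal, so Hbb (-0.77 in heart 2 and 0.13 in heart 3) and Hbe1 (-1.28 and 0.11) are given as uncertain. The mean pairwise r of the list was 0.48 over control and 0.47 over exposed hearts, against 0.00421 and 0.00707 for all named genes.

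Cell cycle genes were highest in heart 5. The mean of 34 genes was 0.33 in heart 5, 0.14 in heart 2 and -0.4 to -0.08 in the other 5, and 27 of the 34 were highest in heart 5. Cdc20, the activator of the anaphase-promoting complex, ran from -0.95 in heart 4 to 0.62 in heart 5, and Cdk1 from -0.74 to 0.44 in the same hearts. The SD of the list mean was 0.26 over controls, close to diabetes (0.24) and the combination (0.22), and 0.11 over HF diet hearts. Clock genes varied without a common direction. Bmal1 was 0.83 in heart 1 and -1.01 in heart 3, and Per3, which it activates, was 0.72 in heart 3. Of 15 clock genes 9 were in the top 10% by SD, while the mean pairwise r was 0.05 and the SD of the list mean 0.12. The interferon-induced genes Mx1 and Usp18 were high in hearts 1 and 5, at 1.39 and 1.22 for Mx1 and at 1.01 and 1.36 for Usp18. Usp18 was also 0.75 in heart 3. The mean of 28 interferon response genes was 0.27 in heart 1, 0.32 in heart 5 and -0.08 to 0.1 in the others. Of these 28 genes 11 were highest in heart 5, against 20.6% of all named genes, and their mean pairwise r was 0.22.

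**Figure D4:**
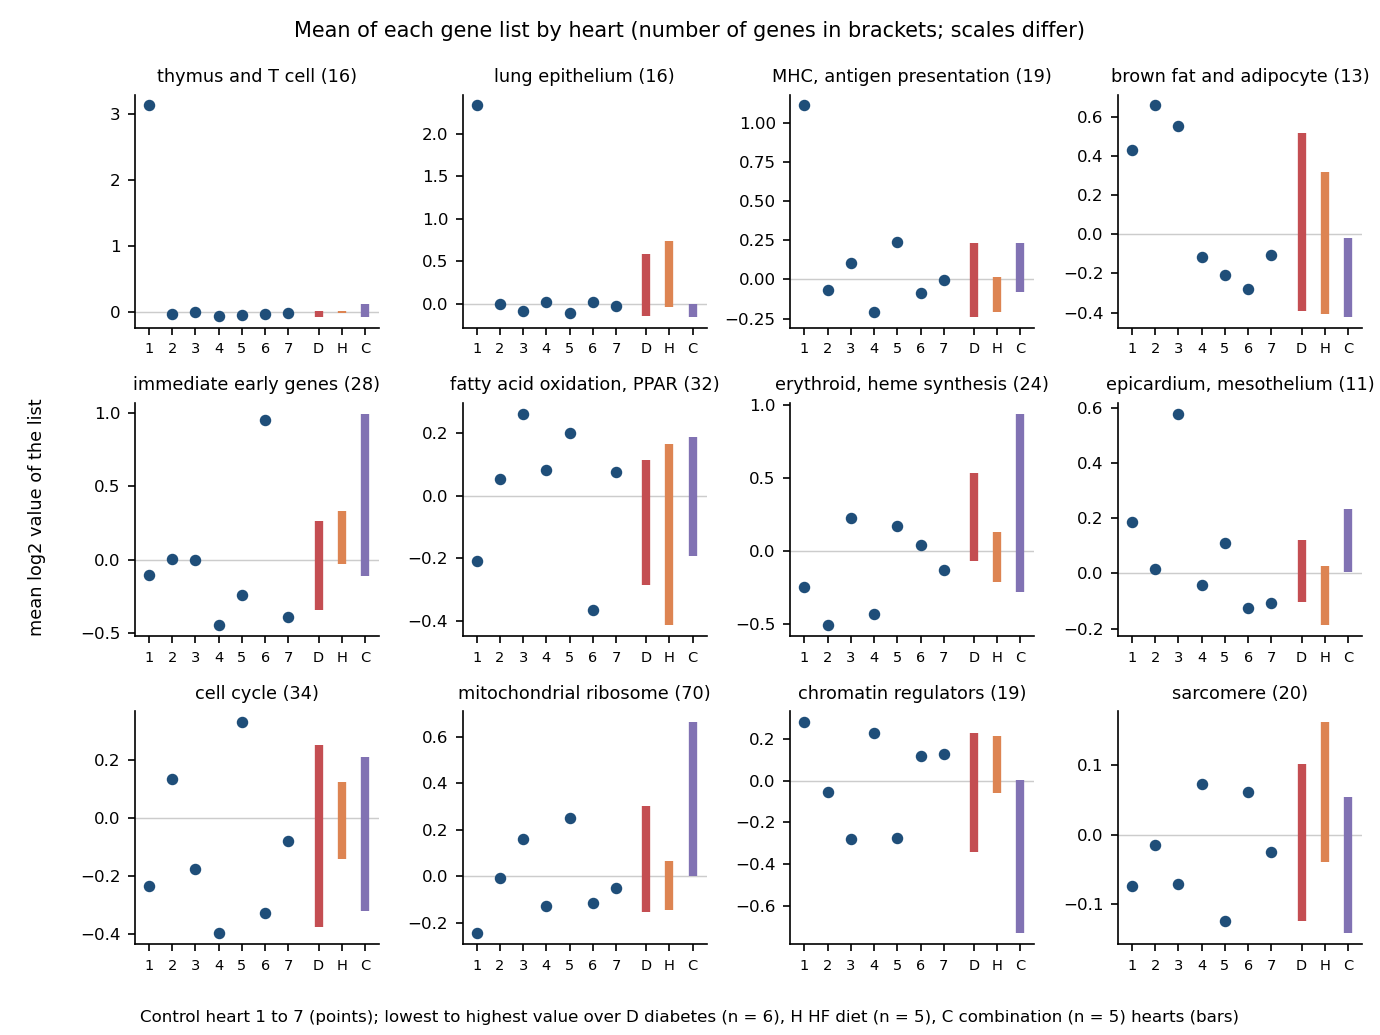
Mean log2 value of 12 gene lists (y axis, scales differ) in control hearts 1 to 7 (points) and the range of list means over the diabetes (D), HF diet (H) and combination (C) hearts (bars). Thymus, lung and MHC genes stand apart in heart 1, immediate early genes in heart 6 at 0.95 and epicardium genes in heart 3 at 0.58, while sarcomere genes stay between -0.12 and 0.07.

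The first principal component ran through genes of the mitochondrion and of several other lists. The 70 genes of the mitochondrial ribosome, which translates the proteins encoded by mitochondrial DNA, averaged -0.24 in heart 1, -0.13 in heart 4, -0.11 in heart 6, -0.05 in heart 7, near 0 in heart 2, 0.16 in heart 3 and 0.25 in heart 5. Of these, 48 were highest in heart 5, against 20.6% of all named genes, and 43 lowest in heart 1, against 23.3%. The 32 genes of respiratory complex I, the entry point of electrons from NADH, followed the same order at both ends, with -0.23 in heart 1 and 0.22 in heart 5. In the top 10% by SD were 0 of 32 complex I genes and 8 of 70 mitochondrial ribosome genes (11.4%), against 10% of all named genes. The median SD of the members was 0.16 for complex I and 0.19 for the mitochondrial ribosome, and 0.159 over all named genes. Mrpl19 was -0.81 in heart 1 and 0.29 in heart 3, and Ndufs3 was -0.39 in heart 1 and 0.45 in heart 5. On the first principal component 68 of 70 mitochondrial ribosome genes, 32 of 32 complex I genes, 37 of 37 genes of complexes II to V and 34 of 34 cell cycle genes had a positive loading, against 52.9% of all named genes. So did 36 of 39 proteasome genes, 55 of 67 cytosolic ribosome genes, 23 of 24 erythroid genes and 29 of 32 genes of fatty acid oxidation and PPAR targets. Few members loaded positively in other lists, with 0 of 16 thymus and T cell genes and 1 of 16 lung epithelium genes. The counts were 4 of 19 for MHC genes, 1 of 17 for neutrophil and mast cell genes and 0 of 19 for chromatin regulators.

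The mean of complex I followed that of the mitochondrial ribosome over the 7 hearts (Pearson r = 0.971, exact permutation p = 0.000992, adjusted 0.00595; Spearman's rho = 0.96, exact p = 0.00278, adjusted 0.027). Without hearts 3 and 5, which lay farthest from the median, r was 0.91. Chromatin regulators with long transcripts went the opposite way. The mean of these 19 genes was 0.28 in heart 1, 0.23 in heart 4, 0.13 in heart 7, 0.12 in heart 6, -0.05 in heart 2 and -0.28 in hearts 3 and 5. Chd2, a chromatin remodeler, ran from -0.79 in heart 5 to 0.51 in heart 1, and Kmt2d, a histone H3 lysine 4 methyltransferase, from -0.63 in heart 3 to 0.41 in heart 1. Pearson's r with the mitochondrial ribosome was -0.966 (exact permutation p = 0.000794, adjusted 0.00595), Spearman's rho was -0.93 (exact p = 0.00675, adjusted 0.027), and r was -0.89 without hearts 3 and 5. These lists too were paired with earlier results of these data known, so the p-values do not test relations named beforehand.

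Both relations were also seen within the exposed groups. Over the 16 exposed hearts, each centred on its group, r was 0.977 for complex I and -0.932 for the chromatin regulators, given as a description. With the first principal component of the control hearts taken out, r was -0.08 for complex I and -0.76 for the chromatin regulators (adjusted exact permutation p = 0.946 and 0.127), so neither pair passed the threshold without that axis. Without heart 5 the complex I relation had r = 0.94 and an adjusted exact p of 0.0533. RNA quality per heart was not given in the sources used here, and its part in this axis was not tested. Heart 1, at the negative end of the axis, also carried the lung and thymus genes. Their part in the axis was not tested either.

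Connective tissue genes gave the fourth relation among the 12 pairs, which were all chosen with earlier results of these data known. The mean of 20 fibroblast and extracellular matrix genes ran from -0.15 in heart 5 to 0.13 in heart 6, and that of 15 elastic fiber genes from -0.27 in heart 5 to 0.19 in heart 2. Eln, the elastin gene, was -1.11 in heart 5 and 0.09 in heart 2, and Fbln5, which tethers elastin to cells, was -1.06 in heart 4, -1.01 in heart 5 and 0.18 in heart 2. Pearson's r was 0.921 (exact permutation p = 0.00556, adjusted 0.0167) and Spearman's rho 0.93 (exact p = 0.00675, adjusted 0.027), with r = 0.77 without hearts 2 and 6 and 0.85 over the exposed hearts. With list medians in place of means r was 0.79 and the adjusted exact p was 0.0876. The other 8 pairs did not pass at an adjusted exact p under 0.05. Sarcomere genes and respiratory complexes II to V had r = -0.43 over control hearts (exact permutation p = 0.334), and -0.83 over exposed hearts.

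**Figure D5:**
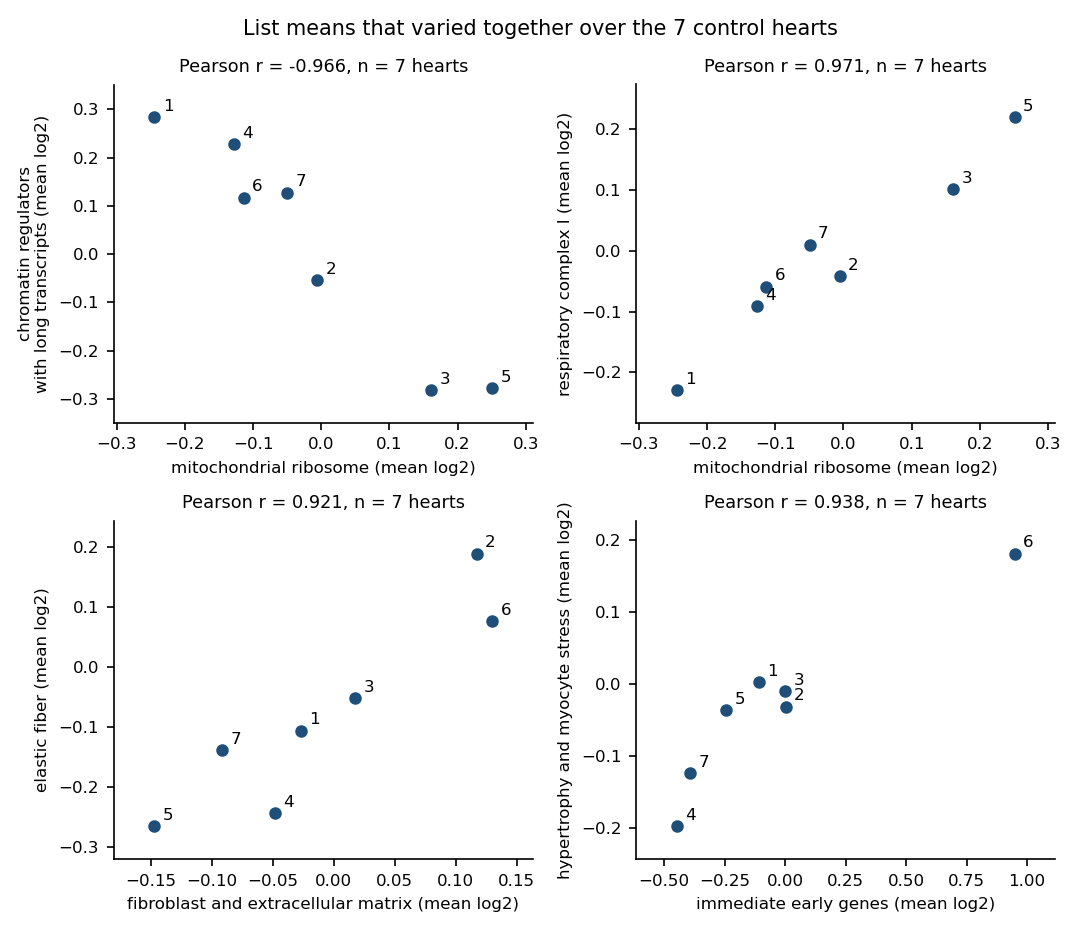
Means of 2 gene lists (log2, x and y axes) in the 7 control hearts, 1 point per heart with its number, for the 4 list pairs with an adjusted exact p under 0.05. The mitochondrial ribosome runs from heart 1 at -0.24 to heart 5 at 0.25, complex I is higher and the chromatin regulators are lower where it is high, and heart 6 lies alone at the top of the immediate early genes.

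For genes of the myocyte's contraction and identity, and for endothelial and cytosolic ribosome genes, the list means stayed close to 0. The mean of 20 sarcomere genes stayed between -0.12 and 0.07 over the 7 control hearts (SD 0.07), and the SDs in exposed groups were 0.08, 0.07 and 0.08. The SD of the list mean was 0.09 for 15 calcium cycling genes, 0.07 for 18 cardiac transcription factors, 0.08 for 9 ventricular genes (0.04 without heart 1), 0.05 for 20 endothelial genes and 0.08 for 67 cytosolic ribosome genes. A mean is also narrow where members go different ways, so the members are given too. In the top 10% by SD were 3 of 20 sarcomere genes, 2 of 15 calcium cycling genes, 5 of 11 conduction system genes, and none of the 18 cardiac transcription factors and of the 67 cytosolic ribosome genes. The median SD of the members was 0.12 for the sarcomere, 0.19 for calcium cycling, 0.29 for the conduction system and 0.2 for the cardiac transcription factors, against 0.159 over all named genes. Within the sarcomere list the widest were Tpm2 (-0.69 in heart 5 to 0.28 in heart 4) and Ttn, the titin gene (-0.58 to 0.29 in the same hearts). Atrial genes had an SD of the list mean of 0.12 in control hearts (0.08 without heart 4) and 0.44 in diabetes hearts, where 1 heart reached -1.07. That difference of list spreads was not tested. The list of sex-linked genes held only 2 measured genes, Ddx3x and Sry, with SDs of 0.16 and 0.12. The 2 probe sets of Ddx3x had SDs of 0.11 and 0.22. This short list does not hold every sex-linked gene, and the sex of single hearts was not read from it. The smallest SDs of all named genes were those of Rpl23a (0.01), Epor, Crlf2, Vom1r34 and Ube2d2 (0.02 each), and since levels cannot be read, a steady gene cannot be told apart from one near background.

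The widest control spreads rested on 1 heart. Of the 200 named genes with the largest SD over the 7 hearts 138 were highest in heart 1, and 131 joined into 1 group with a mean of 2.48 in heart 1 and a mean pairwise r of 0.94. Over the exposed hearts the mean pairwise r of these 131 genes was 0.07, while the 0.94 follows from joining them over the control hearts. Only 75 of the 200 were also among the 200 with the largest SD over hearts 2 to 7, and 3 of the first 20 were Ttr, Ucp1 and Aqp7 again. The first 20 genes had a larger SD in control than in diabetes hearts in 19 cases, than in HF diet hearts in 18 and than in combination hearts in 20, but they were chosen for their control SD, so this direction is a description. Over hearts 2 to 7 the genes formed 12 groups. The largest held 46 genes led by Fos and Egr1 and was high in heart 6, the next 21 genes led by Ttr, and the third 19 genes led by Aqp7. A group of 13 genes with Ahsp, Slc4a1 and Alas2 had a mean pairwise r of 0.88 over these hearts and 0.71 over the exposed hearts. A group of 5 with the clock genes Per3, Nr1d2 and Tef was highest in hearts 7 and 3, at 0.77 and 0.62.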

How the data were processed

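RNA of 23 newborn rat hearts was hybridized by the authors to Affymetrix arrays and normalized in GeneSpring GX. Its algorithm and the limits of the quality filter were not stated. As deposited, values are log2 and every one of the 29170 probe sets has a median of 0 over the 23 arrays, and 198 probe sets repeat the values of an earlier one. The deposited log2 values were used without a second normalization or a filter on dim probe sets, which the centring does not allow. Arrays give no depth, and the number of hearts limits the precision.

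The array annotation gave 15310 probe sets 1 symbol, 323 several and 13537 none, and 15279 Entrez identifiers matched RefSeq. Symbols beginning with LOC, RGD, MGC or NEWGENE were not named. The hearts were taken by their label, while this group as the part to study, the gene lists and the pairs were chosen with earlier results of these data known. Named genes were drawn from the 20 with the largest control SD, the first 2 by SD of each list, the 10 probe sets with the smallest p per spread comparison and the 5 with the smallest SD, and not every one of them appears in the text; further list members and those that stand more than 1 log2 unit apart in 1 heart were named after their values were seen. List values are means over genes, each gene averaged over its probe sets.

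Spread was tested with limma 3.58.1 (R 4.3.3) on absolute deviations from the group mean, scaled for n, in 1 fit of all 23 hearts with Benjamini-Hochberg adjustment over 29170 probe sets. This test was tried on simulated data first. Heart distances and list correlations used two-sided exact permutation tests (scipy 1.17.1). The 200 genes with the largest SD were joined by average linkage at r = 0.7, and groups of at least 5 are described without a test. Grouping, naming and the top 10% by SD over hearts 2 to 7 were added after seeing the data. Alternatives were other centres and deviation measures, quantile normalization, named probe sets, removal of the first principal component, 1 heart per code stem, a replicate block, list medians and each heart left out.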

Additional observations from a re-analysis of the deposited data

Results flagged for a closer look

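In 26 genes and 4 list means a single control heart lay farther from its nearest neighbour, as a share of the range of the 7 hearts, than Dixon's 95% critical value allows. Chance gives such a gap in about 1 in 20 groups, and the genes were chosen for a large spread, which favours them. All 26 genes belong to the 20 with the largest SD over the 7 hearts or the 20 over hearts 2 to 7. These sets share 3 genes, and the share over all named genes is not given here. All values below are log2 and centred on the median of 23 hearts.

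In control heart 1 the lung epithelium genes Scgb1a1 (6.26), Sftpc (5.93), Sftpb (4.54), Scgb3a1 (3.62) and Sftpa1 (3.54) stood apart. So did the thymus and T cell genes Cd3g (5.73), Cd3e (4.68), Rag1 (4.67), Prss16 (4.06), Cd8b (3.72), Cd3d (3.7), Icos (3.55) and Cd8a (3.49). Slc7a11 (5.07), Sla (3.75), Cmahp (3.59) and RT1-Da (3.59) were the others in this heart. The list means of thymus and T cell (3.14), lung epithelium (2.34) and MHC and antigen presentation genes (1.11) stood apart there too.

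In control heart 5 the genes were Ttr (5.48), Kcnj13 (3.38), Htr2c (3.2) and Clic6 (2.18). In control heart 6 the genes Nr4a1 (2.62), Fos (2.38), Nr4a3 (2.24) and Egr1 (2.05) and the mean of the immediate early genes (0.95) were high, and Aqp7 (-2.84) was low. No explanation was weighed for these values.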

How the results depend on the processing

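The median control SD lay between 0.138 (scaled median absolute deviation) and 0.169 (quantile normalization) in every alternative. For diabetes the spread test called 0 probe sets in every alternative but quantile normalization (1). For HF diet it called 116 when only the first heart of each code stem was kept, which leaves 3 exposed hearts, and 0 to 1 without 1 heart at a time. The 10 calls for the combination became 0 with deviations from the group median, 0 under quantile normalization, 1 with squared deviations, 6 without the first principal component, 17 over probe sets with 1 symbol, 924 with the first heart of each code stem (3 exposed hearts) and 1 to 110 without 1 heart at a time. Leaving out a control heart gave 1 to 3 calls and leaving out a combination heart 17 to 110. The cause was not tested.

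Same-numbered hearts of different groups had a median r of their deviations of -0.1 over 16 pairs (-0.29 to 0.56). The 96 pairs with different numbers had a median of -0.008 (-0.53 to 0.39). Whether single pairs share a processing step was not tested. With the replicate block the counts were 0 for diabetes, 0 for HF diet and 1 for the combination.

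The difference in mean heart distance from controls was within 0.04 log2 throughout, and its sign was not stable. Without 1 heart it ran from -0.0189 to 0.0148 for diabetes, from -0.036 to 2.1e-05 for HF diet and from -0.0038 to 0.0374 for the combination, and under quantile normalization it was 0.00165 for diabetes and -0.0136 for the combination.

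The number of list pairs past the threshold was 1 to 6 without 1 heart at a time and 3 or 4 otherwise. Without the first principal component r was -0.0785 for mitochondrial ribosome and complex I, -0.42 for erythroid and cell cycle genes and 0.0306 for sarcomere and complexes II to V. Without 1 heart at a time r ran from -0.26 (heart 5) to 0.57 for erythroid and cell cycle genes, from -0.26 (heart 1) to 0.999 for thymus and lung genes and from -0.89 to 0.65 for glycolysis and fasting genes. The last was -0.89 without heart 6, with an adjusted exact permutation p of 0.0444.

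Of the 20 genes with the largest control SD, 1 was kept by the median absolute deviation, 5 by quantile normalization, and between 3 (without heart 1) and 20 without 1 heart at a time. The SD of a list mean moved by more than its approximate standard error in 21 of 328 recomputations. Centred values hide signal over background, so dim and bright probe sets weigh alike.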
